A study of Homo sapiens with 6 samples.

Results

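Axon guidance ligands and receptors were taken from the expression table of Huh7 cells as every row whose symbol belongs to the semaphorin, plexin, neuropilin, Eph, ephrin, ROBO, SLIT, netrin, UNC5, DCC or reelin names. The search found 51 of the 14200 rows. Of these, 47 encode guidance molecules. The other 4 matched by name and were not counted as guidance molecules: the antisense RNAs EPHA5-AS1 and SEMA6A-AS1, the membrane protein gene UNC50 and the UNC5C-like gene UNC5CL. Levels are in CPM, the reads of a gene scaled for the depth of its library. Averaged over the 6 libraries, 45 rows reached 1 CPM and were tested, and 6 rows lay below it. On the 2 sides of that limit stood SEMA3C at a mean of 1.205 CPM and EPHA6 at 0.826 CPM.

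Huh7 is an established line of human hepatocellular carcinoma cells, grown here in DMEM with serum. The labels give 3 control libraries and 3 libraries of SETD5-deficient cells, made by siRNA transfection with a lipid reagent, and what the control cells received is not given in the sources used here. No label says whether the libraries of a group were separate cultures, so the p-values capture only how far these libraries differ from each other, and that spread may be technical. All cells are of 1 line, and RNA was sequenced from whole cultures, so fewer expressing cells and less RNA per cell cannot be told apart.

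Guidance molecules are cues and receptors first described in growing axons. Semaphorins signal through plexins, with neuropilins as co-receptors for most secreted class 3 members. Ephrins on a cell surface engage Eph tyrosine kinases on a neighbouring cell, SLIT proteins engage ROBO receptors, netrins act through DCC and UNC5 receptors, and reelin binds the lipoprotein receptors VLDLR and LRP8. In liver and other epithelia the same families act in cell adhesion, migration and vessel patterning.

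The libraries held 14038447 to 17095417 recovered reads. SETD5, the siRNA target, stood at 212, 209.6 and 202 CPM in the controls and at 136, 140.4 and 138 CPM after knockdown. The SETD5 mean was thus 0.664 times the control, a partial loss of its message. Its log2 fold change was -0.59 (SE 0.0318, limma adjusted p = 1.15e-17), and an exact two-sided permutation test of 3 against 3 values gave p = 0.1, the smallest this design allows. All 9 hepatocyte and hepatoma markers were present, with a summed level of 40647 to 41368 CPM in the controls and 38460 to 38974 CPM after knockdown. AFP held the largest part of that sum, and the markers did not move together. TTR and APOB fell to 0.619 and 0.682 times the control, and AFP, APOA1 and SERPINA1 were also called lower. ALB, KRT8 and KRT18 were called higher, and HNF4A did not pass. Markers of other cell types were low or mixed. The 4 of 9 neuron markers analysed summed to 30.3 to 31.8 CPM in the controls and 27.6 to 31.7 CPM after knockdown, and the 2 of 7 endothelial markers to 0.786 to 1.35 and 0.614 to 0.938 CPM. Among the neuron markers SYT1 fell from 8.33 ± 0.711 to 5.31 ± 0.593 CPM (SD, n = 3 per group, limma adjusted p = 2e-05), and SNAP25, SYP and GAP43 did not pass. For stellate cells and fibroblasts (4 of 8 markers) the sums were 53.6 to 61.0 and 47.9 to 48.6 CPM, with PDGFRB and COL1A1 called lower and COL3A1 and LUM higher. For immune cells (4 of 6) they were 261 to 287 and 629 to 707 CPM, nearly all of it lysozyme LYZ (260.5 and 649 CPM on average). The leukocyte antigen PTPRC was at 1.13 ± 0.202 and 1.59 ± 0.294 CPM (SD, n = 3 per group). CD68 was at 6.83 ± 1.00 and 7.92 ± 0.322 CPM, and neither changed clearly (limma adjusted p = 0.12 for PTPRC and 0.111 for CD68). CD14 fell from 3.62 ± 0.169 to 1.76 ± 0.264 CPM (limma adjusted p = 8.3e-06). Cholangiocyte markers (3 of 4) summed to 229 to 249 and 256 to 264 CPM, with KRT19 called lower and EPCAM and SOX9 higher. The part of these shifts in the results below was not tested.

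The comparison asks how the guidance genes differed after this partial SETD5 knockdown. Reelin, both neuropilins, ROBO1, ROBO2, SLIT2, the secreted semaphorin SEMA3D and the receptor EPHA5 rose, while the plexin PLXND1, the membrane semaphorin SEMA4G and the netrin receptor UNC5B fell. Of the 45 tested rows, 31 passed limma at an adjusted p under 0.05, against 52.1% of all 12865 tested genes. Higher after knockdown were 18 of the 45 (25.7% of all genes) and lower were 13 (26.5% of all genes). With the added limit of a 1.5-fold change on the log2(CPM + 1) scale, 7 were higher, where 2.85% of all genes were, and 3 were lower, where 3.78% of all genes were. That scale understates the change of genes with low levels. The 7 were RELN, ROBO2, NRP2, SEMA3D, EPHA5, EFNB3 and SEMA3E, and the 3 were PLXND1, SEMA4G and EPHA1. Control and knockdown values did not overlap in 31 of the 45 rows, against 57.3% of all genes. The median log2 change was -0.004 over the 45 rows and -0.001 over all tested genes, and the median absolute change was 0.284 and 0.155. All 31 called rows encode guidance molecules, and none of the 3 other tested rows passed. With 52.1% of all genes called, 3 rows are too few for a contrast. Without knockdown replicate 1, EPHA5-AS1 and the ephrin EFNA2 passed as well.

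**Figure D1:**
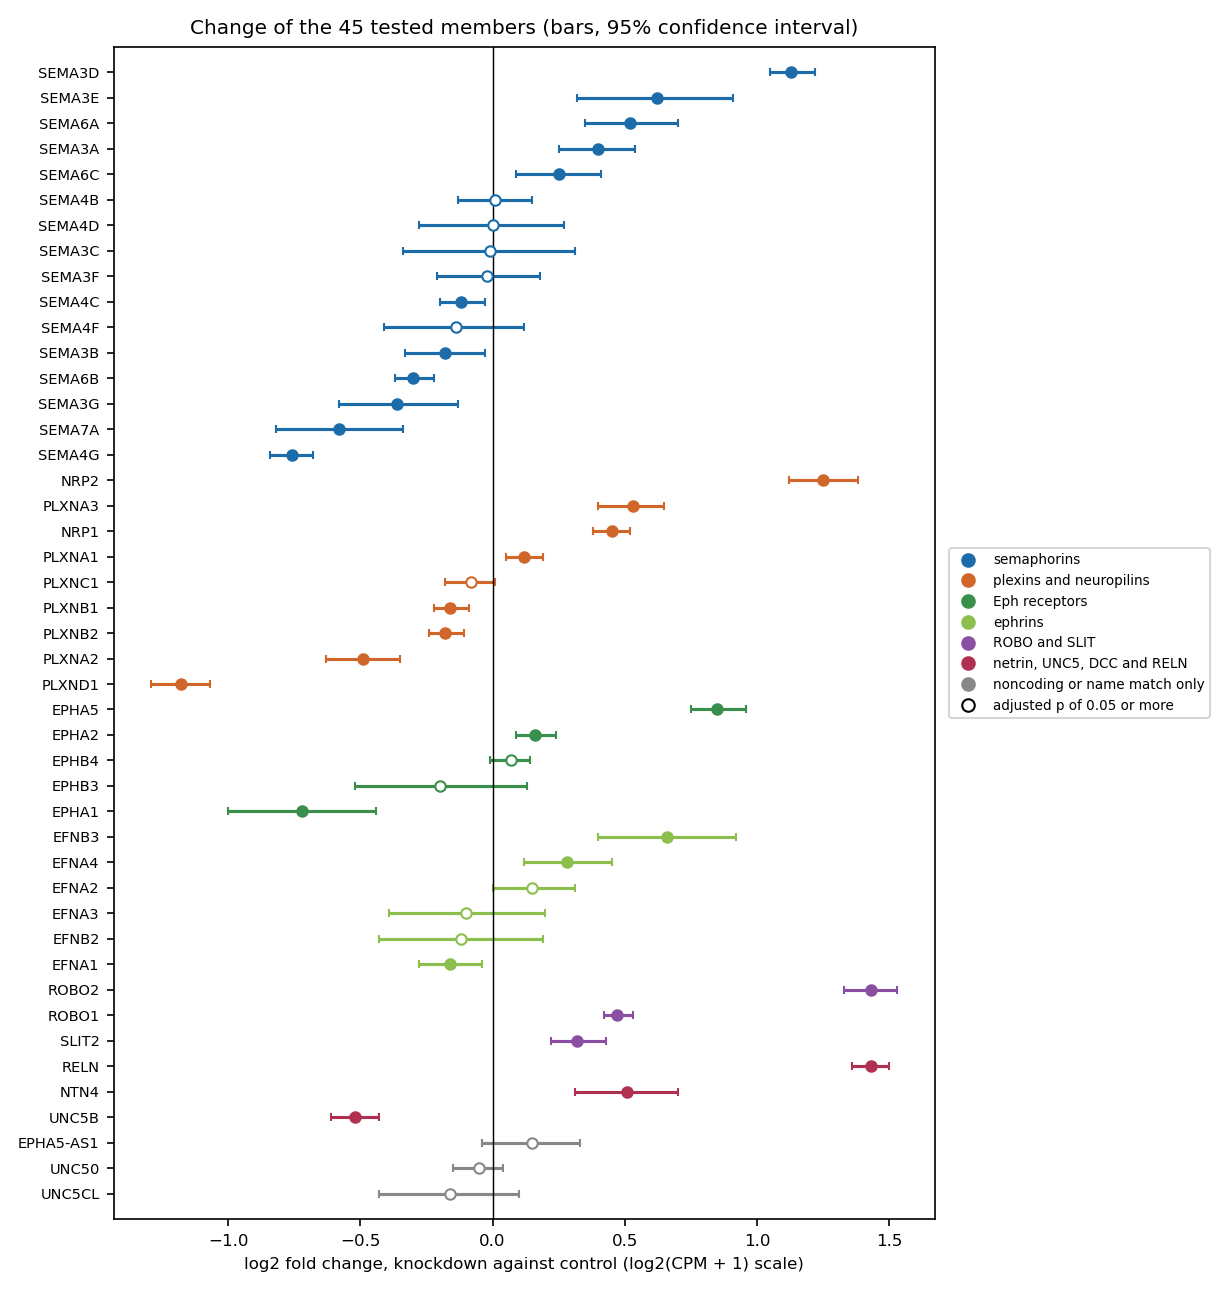
Log2 fold change after SETD5 knockdown (horizontal axis, log2(CPM + 1) scale) of each tested member (rows), with its 95% confidence interval from limma. Colour gives the family and open symbols did not pass. RELN and ROBO2 lie farthest right at 1.43, PLXND1 farthest left at -1.18, and each of the semaphorin, plexin and Eph families has members on both sides of 0.

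Promoter windows of RefSeq, 250 bases before to 50 after the listed gene start on GRCh38.p14, were matched for 44 of the 51 members. They are shown for 3 genes with large changes, of which 2 rose and 1 fell. Capitals mark GC boxes, GGGCGG on either strand, with overlapping copies joined.
RELN, chr7:103989609-103989908, minus strand: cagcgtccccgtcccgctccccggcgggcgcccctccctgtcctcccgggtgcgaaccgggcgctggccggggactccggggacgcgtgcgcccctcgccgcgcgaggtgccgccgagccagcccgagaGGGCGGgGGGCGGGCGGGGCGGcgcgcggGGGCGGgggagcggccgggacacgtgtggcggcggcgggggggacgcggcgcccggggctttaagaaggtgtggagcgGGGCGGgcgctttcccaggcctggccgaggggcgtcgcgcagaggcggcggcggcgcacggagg
SEMA3D, chr7:85187007-85187306, minus strand: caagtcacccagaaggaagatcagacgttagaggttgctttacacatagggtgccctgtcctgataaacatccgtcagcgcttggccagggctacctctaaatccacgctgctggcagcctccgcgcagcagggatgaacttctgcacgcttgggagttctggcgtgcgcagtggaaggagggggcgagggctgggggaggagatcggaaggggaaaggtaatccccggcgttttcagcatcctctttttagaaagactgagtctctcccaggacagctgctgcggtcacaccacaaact
PLXND1, chr3:129606627-129606926, minus strand: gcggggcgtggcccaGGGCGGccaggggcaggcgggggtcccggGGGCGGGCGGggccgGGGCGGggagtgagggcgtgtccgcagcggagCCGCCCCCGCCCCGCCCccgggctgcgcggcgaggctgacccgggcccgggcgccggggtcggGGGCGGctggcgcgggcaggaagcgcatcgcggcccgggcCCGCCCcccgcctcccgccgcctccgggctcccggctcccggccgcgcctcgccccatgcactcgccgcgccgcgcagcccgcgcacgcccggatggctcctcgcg
The RELN window held 52 CG pairs and 6 GC boxes and that of PLXND1 52 CG pairs and 9 GC boxes. SEMA3D, which rose, had 14 CG pairs and no GC box in its window. A GC box was found in 35 of the 44 member windows (79.5%), in 70.0% of 9611 windows of tested genes and in 44.6% of 27305 windows in all. The member windows include rows under 1 CPM and rows not counted as guidance molecules, so the sets are not alike. TATAAA on either strand was in 1 member window, that of EFNB2, against 5.5% of tested genes. A match of letters is a description and not a shown binding site, and the listed start may not be the one used in Huh7.

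Reelin, a large secreted matrix glycoprotein, had the largest gain in CPM of all guidance genes. RELN stood at 330.2, 334 and 352 CPM in the controls and at 885, 985 and 874 CPM in the knockdown libraries. Every knockdown value was thus more than any control value, and the group means were 339 ± 11.5 and 914 ± 61.3 CPM (SD, n = 3 per group), 2.70 times the control. On the log2(CPM + 1) scale RELN rose by 1.43 (SE 0.0328, limma adjusted p = 1.46e-28). The recovered reads of RELN ran from 4792 to 16048 per library, so counting error was small. Its receptors went the other way. VLDLR was at 28.3, 27.4 and 26.7 CPM in the controls and 22.7, 23.2 and 22.8 CPM after knockdown (log2 change -0.25, limma adjusted p = 0.000543). LRP8 was at 30.7, 31.7 and 33.9 CPM against 27.8, 27.3 and 27.6 CPM (-0.21, limma adjusted p = 0.00211). DAB1, the adaptor that reelin receptors engage inside the cell, rose from 4.19 ± 0.876 to 6.74 ± 0.622 CPM. The ratio of RELN reads to VLDLR reads went from 11.7, 12.2 and 13.2 to 39.0, 42.5 and 38.3, without overlap (exact two-sided permutation p = 0.1, the smallest possible). Those 3 partners of reelin and this ratio were picked after their values were seen.

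Among the other secreted or receptor genes of the netrin group, NTN4, a laminin-like netrin of basement membranes, rose, and UNC5B, a netrin receptor of vessels and epithelia, fell. NTN4 was at 6.32, 6.76 and 6.002 CPM in the controls and 9.001, 9.27 and 10.1 CPM in the knockdown libraries (log2 change 0.51, SE 0.0954, limma adjusted p = 2.98e-05). UNC5B was at 67.4, 64.4 and 67.6 CPM and then at 45.3, 48.7 and 44.2 CPM (log2 change -0.52, SE 0.0456, limma adjusted p = 5.14e-12). Neither gene had overlapping groups, which was also so for 57.3% of all tested genes. The search found no row for DCC or another UNC5 receptor, so their levels are not known here.

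ROBO1, ROBO2 and their ligand SLIT2 rose. ROBO1 is the main receptor of the family by level: its controls stood at 253, 252 and 257 CPM and the knockdown libraries at 349.9, 362 and 347 CPM. ROBO2, its neighbour on chromosome 3 with no coding gene between them, was at 33.8, 35.9 and 32.7 CPM and then at 91.5, 102 and 88.1 CPM. The rise was 2.76 times for ROBO2 (log2 change 1.43, SE 0.0493, limma adjusted p = 1.66e-23) and 1.39 times for ROBO1 (0.47, SE 0.0282, limma adjusted p = 1.77e-16). ROBO2 reads per ROBO1 read went from 0.134, 0.142 and 0.127 to 0.262, 0.283 and 0.254. The ratio of ROBO2 to ROBO1 moved by 1.98 times with no overlap (exact two-sided permutation p = 0.1, the smallest possible), and this pair was picked after values were seen. SLIT2, the secreted ligand, went from 36.7, 35.2 and 37.1 CPM to 46.4, 48.0 and 42.6 CPM (log2 change 0.32, SE 0.0517, limma adjusted p = 2.54e-06). All 3 tested members of this family passed, each higher and with no shared values, and ROBO3 and SLIT1 lay under 1 CPM. Of all tested genes, 25.7% were called higher and 57.3% had groups without overlap, and 3 members are too few for a statement about the family.

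**Figure D2:**
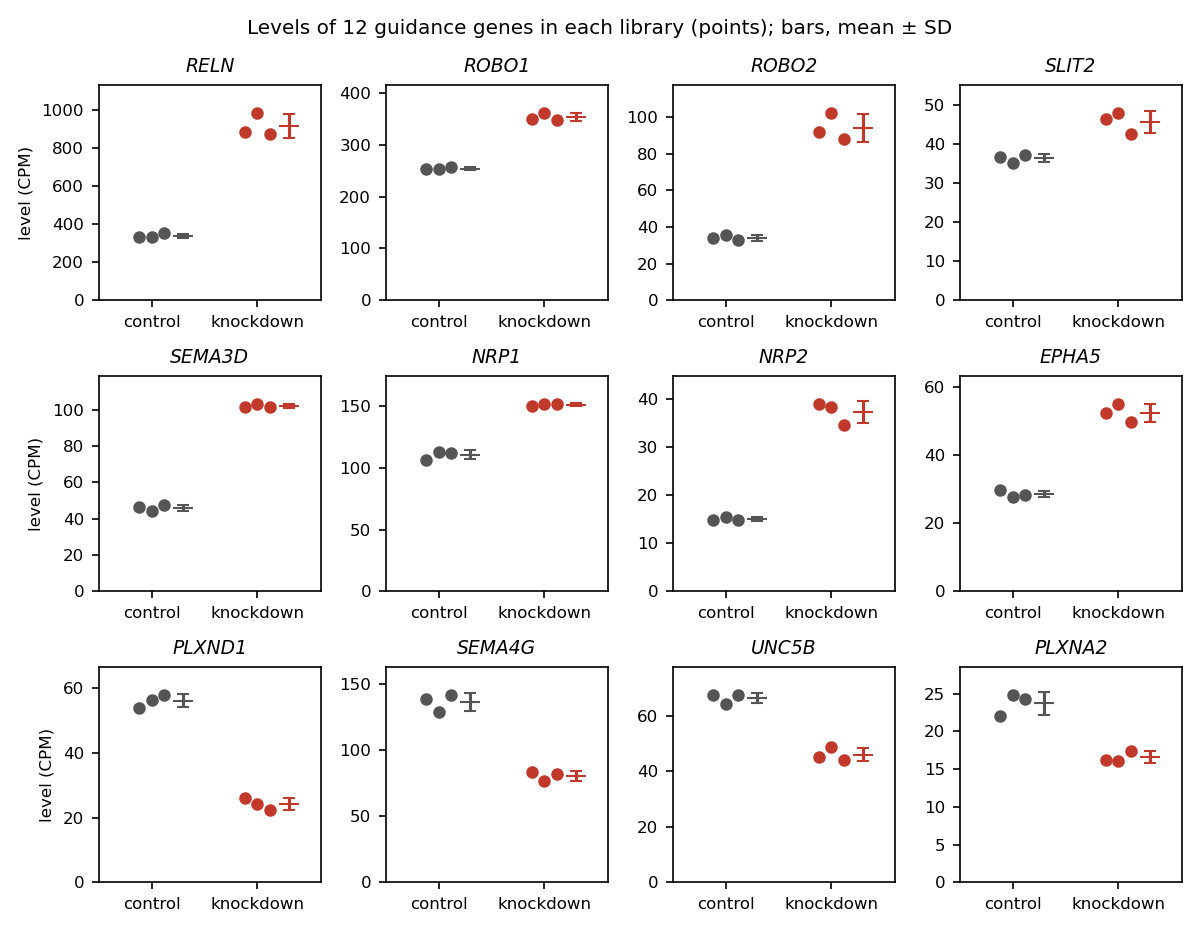
Level in CPM (vertical axes from 0, a scale for each gene) of the guidance genes with large or well-measured changes in the control and knockdown libraries. Each point is a library and the bars beside the points are the mean ± SD of 3 libraries. In each panel the 2 groups are separate, for example RELN at 330.2 to 352 CPM against 874 to 985 CPM. Of all tested genes, 57.3% had separate groups.

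Both neuropilins, co-receptors for class 3 semaphorins and for VEGF, rose. NRP2 was at 14.8, 15.6 and 14.9 CPM in the controls and 39.1, 38.4 and 34.7 CPM after knockdown, 2.48 times higher (log2 change 1.25, SE 0.0634, limma adjusted p = 1.54e-18). NRP1, the more abundant of the pair, went from 106, 113 and 112 CPM to 149.9, 152 and 152 CPM (log2 change 0.45, SE 0.0341, limma adjusted p = 1.31e-13). NRP2 reads per NRP1 read changed from 0.139, 0.138 and 0.132 to 0.261, 0.253 and 0.229. These ratios do not overlap (exact two-sided permutation p = 0.1, the smallest possible), and the pair was picked after values were seen. As a description, the mix of reads of the 2 co-receptors moved toward NRP2.

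Plexins, the signal-transducing semaphorin receptors, had 2 of 7 higher (28.6%, near the 25.7% of all genes) and 4 lower (57.1%, against 26.5%). PLXND1, the receptor of SEMA3E in vessels, had the strongest fall of all members, from 53.9, 56.4 and 57.9 CPM to 26.2, 24.2 and 22.3 CPM. Its mean went to 0.432 times the control (log2 change -1.18, SE 0.0556, limma adjusted p = 2.08e-19). PLXNA2 fell from 22.0, 24.9 and 24.3 CPM to 16.2, 16.1 and 17.5 CPM (log2 change -0.49, limma adjusted p = 1.93e-07). In the other direction, PLXNA3 rose from 24.0, 21.3 and 23.7 CPM to 35.8, 31.7 and 33.3 CPM (0.53, limma adjusted p = 4.56e-09). None of these 3 had overlapping groups, which was also so for 57.3% of all tested genes, and the 3 most abundant plexins moved by less. PLXNB2, a class B plexin and the plexin with the highest level, was at 295, 267 and 293 CPM and then at 249, 251 and 254 CPM (log2 change -0.18, limma adjusted p = 1.29e-05). PLXNB1, the receptor of SEMA4D, was at 240.5, 224 and 237 CPM against 216, 203 and 209 CPM (-0.16, limma adjusted p = 9.23e-05). PLXNA1 was at 140.4, 129 and 138 CPM against 149.8, 149.9 and 143 CPM (0.12, limma adjusted p = 0.0039). PLXNA1 no longer passed in a limma fit with no trend of variance on level (adjusted p = 0.0699). PLXNC1, a receptor of SEMA7A, stood at 49.9, 53.6 and 50.8 CPM and 47.2, 49.8 and 48.6 CPM. Its groups did not overlap and it did not pass (limma adjusted p = 0.135).

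Semaphorins had 5 of 16 higher (31.2%, against 25.7% of all genes) and 6 lower (37.5%, against 26.5%), and calls in both directions are also what all genes showed. In these libraries the direction differed within each structural class that had more than 1 call, apart from class 4. Of the 7 secreted class 3 members, SEMA3D, SEMA3A and SEMA3E rose. SEMA3D went from 46.3, 44.2 and 47.4 CPM to 102, 103 and 101.2 CPM, 2.22 times the control, with an SD of 1.13 CPM over the 3 knockdown libraries. Its log2 change was 1.13 (SE 0.0409, limma adjusted p = 6.77e-23). SEMA3A, the prototype repellent cue, was at 14.3, 14.6 and 14.0 CPM and rose to 18.3, 19.3 and 19.9 CPM (0.40, SE 0.0717, limma adjusted p = 1.53e-05). SEMA3E, the ligand of PLXND1, rose from 1.23, 0.975 and 1.22 CPM to 2.63, 2.39 and 1.85 CPM on 14 to 42 reads a library (0.62, SE 0.145, limma adjusted p = 0.000517). These 3 genes are successive coding genes on chromosome 7 in RefSeq order, SEMA3E, SEMA3A, SEMA3D, with none between them. SEMA3D reads per SEMA3A read, a ratio picked after values were seen, went from 3.24, 3.03 and 3.38 to 5.56, 5.36 and 5.08 (exact two-sided permutation p = 0.1, the smallest possible). SEMA3C, with 3 coding genes between it and SEMA3E, did not pass, at 1.35, 1.18 and 1.07 CPM against 1.75, 0.859 and 1.02 CPM (log2 change -0.01, 95% interval -0.34 to 0.31).

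The remaining secreted semaphorins lie on chromosome 3 and did not rise. SEMA3G fell from 5.21, 5.08 and 5.07 CPM to 3.63, 3.81 and 3.89 CPM (log2 change -0.36, SE 0.111, limma adjusted p = 0.00658). SEMA3B, a p53-responsive gene, was at 16.5, 17.3 and 19.1 CPM and then 15.9, 14.9 and 15.5 CPM (-0.18, limma adjusted p = 0.0455). That call is at the edge: it ended under 10 of the 15 other fits made, with an adjusted p of up to 0.237 when control replicate 3 was left out. SEMA3F, a ligand of NRP2, did not pass at 7.87 ± 0.438 and 7.78 ± 0.736 CPM (SD, n = 3 per group; 95% interval of the log2 change -0.21 to 0.18).

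Membrane semaphorins held the highest levels of the family in the controls. SEMA4G, a class 4 member, fell from 139, 129 and 142 CPM to 83.2, 76.3 and 82.1 CPM, 0.589 times the control (log2 change -0.76, SE 0.0395, limma adjusted p = 3.73e-18). SEMA4G overlaps the mitochondrial ribosomal protein gene MRPL43 in RefSeq, and MRPL43 averaged 39.3 ± 1.24 in the controls and 38.3 ± 1.18 CPM after knockdown (limma adjusted p = 0.56). Whether the authors' counting used strand is not given in the sources used here, so the split of reads between overlapping genes is uncertain. The other overlaps of members in RefSeq are PLXNC1 with CEP83, PLXNA3 with LAGE3, EPHB4 with SLC12A9, SEMA4D with SECISBP2, and SEMA6A and EPHA5 with their antisense RNAs. CEP83, LAGE3, SLC12A9 and SECISBP2 did not pass either. SEMA6B, a ligand of class A plexins, fell from 131, 128 and 128 CPM to 108, 106 and 100.6 CPM (-0.30, SE 0.0353, limma adjusted p = 7.47e-09). Its class 6 relatives went up. SEMA6A rose from 8.72, 10.4 and 10.0 CPM to 13.3, 14.6 and 15.2 CPM (0.52, limma adjusted p = 3.21e-06), and SEMA6C from 13.1, 11.8 and 12.6 CPM to 13.8, 15.4 and 16.0 CPM (0.25, limma adjusted p = 0.00804). The SEMA6C call ended without knockdown replicate 3 (limma adjusted p = 0.0558). SEMA7A, the GPI-anchored semaphorin, fell from 8.43, 5.99 and 9.07 CPM to 4.81, 4.17 and 5.62 CPM (-0.58, SE 0.119, limma adjusted p = 0.000105), with its highest knockdown value close to its lowest control. SEMA4C was lower by a small margin with overlapping groups, at 79.5 ± 2.83 against 73.4 ± 3.40 CPM (-0.12, limma adjusted p = 0.0194), and it lost the call with no variance trend, without knockdown replicate 2 or 3, and without control replicate 3. SEMA4B, SEMA4D and SEMA4F did not pass, and their groups overlapped at 18.2 to 21.6, 2.64 to 4.29 and 2.56 to 4.04 CPM.

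An siRNA can also lower other messages that hold a short match in the 3' UTR. No siRNA sequence was compared here, so the 6-base word GCACCT is not shown to match this siRNA. The word was chosen with earlier results of these data known, so the shares below describe the data and test no siRNA effect. It was looked up on the transcript strand of GENCODE 29 transcripts, 1 per gene. The word was present in 28.6% of 11538 tested genes with a 3' UTR and in 16 of 44 tested members (36.4%). The members also had longer 3' UTRs, with a median of 1398.5 bases against 1117, and a longer 3' UTR gives more places for a word. Over all genes the median log2 change was -0.035 with the word and 0.014 without it, and 34.5% and 24.2% were called lower. Called in either direction were 59.2% and 52.1%. Of the 13 tested members with a 3' UTR that were not called, 4 held the word. Of the 13 members called lower, 6 held it (PLXND1, SEMA3G, SEMA4C, SEMA4G, SEMA7A and UNC5B), and of the 18 called higher, 6 held it too (EFNA4, NRP2, PLXNA1, PLXNA3, SEMA3E and SEMA6C). RELN, ROBO1, ROBO2, SLIT2, SEMA3D, NRP1 and EPHA5, which rose, had no copy, and neither did EPHA1, PLXNA2, SEMA6B, PLXNB1, PLXNB2, EFNA1 and SEMA3B, which fell. The word's part in any of these changes was not tested. When all genes holding it were left out, 12 members were called higher and 7 lower. The sites of the 4 members with the largest falls among those that hold the word, and of NRP2, which rose, are shown with the word in capitals and up to 12 bases to each side, 5′ to 3′, from the GENCODE 29 transcripts.
PLXND1: cttgacccctggGCACCTccatcccctccc
SEMA4G: ttccactcacatGCACCTctgagcctccct
SEMA7A: gctttggcccctGCACCTcttctcaatgca
UNC5B: tgatctccacagGCACCTcctataaccctc
NRP2: cggattGCACCTgaatcctatctg
Counted from 1 at the first base after the stop codon, the word starts at base 180 in PLXND1, 850 in SEMA4G, 1274 in SEMA7A, 1560 in UNC5B and 7 in NRP2.

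Eph receptors were dominated by a pair of genes that changed little. EPHB4, the receptor of EFNB2, was at 171, 156 and 174 CPM and then 172, 175 and 176 CPM and did not pass (log2 change 0.07, 95% interval -0.01 to 0.14, limma adjusted p = 0.117). It passed without control replicate 3 (adjusted p = 0.0429). EPHA2, a receptor common in epithelial tumours, rose from 121, 111 and 122 CPM to 131, 129 and 138 CPM (0.16, SE 0.0375, limma adjusted p = 0.000374). A further pair of EphA genes moved more and in opposite directions. EPHA5, best known from brain, rose from 29.7, 27.9 and 28.3 CPM to 52.5, 55.1 and 49.8 CPM, 1.83 times the control (0.85, SE 0.052, limma adjusted p = 3.23e-16). Its antisense partner EPHA5-AS1, which overlaps it in RefSeq, averaged 9.90 ± 0.191 and 11.1 ± 1.38 CPM (limma adjusted p = 0.174). EPHA1 fell from 3.22, 3.06 and 4.001 CPM to 1.63, 1.35 and 2.09 CPM on 22 to 56 reads a library (-0.72, SE 0.138, limma adjusted p = 3.43e-05). EPHB3 did not pass (0.897 to 2.36 CPM, log2 change -0.20, 95% interval -0.52 to 0.13).

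Ephrins, the ligands of Eph receptors, had 2 of 6 higher (33.3%, against 25.7% of all genes) and 1 lower (16.7%, against 26.5%), shares near those of all genes with so few members. EFNB3, a transmembrane ephrin, rose from 2.17, 1.88 and 1.64 CPM to 3.88, 3.62 and 3.23 CPM on 23 to 62 reads a library (log2 change 0.66, SE 0.13, limma adjusted p = 5.51e-05). EFNA4 rose from 11.6, 10.5 and 11.7 CPM to 13.8, 14.6 and 13.5 CPM (0.28, SE 0.0809, limma adjusted p = 0.0035). EFNA1, the most abundant ephrin and a ligand of EPHA2, was at 41.3, 34.8 and 40.3 CPM and then 36.7, 32.5 and 34.7 CPM, with overlapping groups (-0.16, limma adjusted p = 0.0247). Its call ended in 5 of the 15 other fits, including those without control replicate 1, control replicate 3 or knockdown replicate 2. EFNA1, EFNA3 and EFNA4 form a cluster on chromosome 1, and RefSeq lists a read-through of EFNA4 and EFNA3, so reads of those 2 may be split between them. EFNA2, EFNA3 and EFNB2 did not pass, at 13.8 to 17.1, 1.31 to 2.23 and 1.14 to 2.17 CPM.

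Levels were compared between genes per kilobase of 1 GENCODE 29 transcript each, since longer transcripts collect more reads. In the controls the order of the guidance molecules opened with ROBO1 (45.3 CPM per kb), PLXNB2 (44.7), EPHB4 (38.5), SEMA4G (33.4), SEMA6B (32.4), PLXNB1 (32.0), EPHA2 (29.8) and RELN (29.3). After knockdown it opened with RELN (79.1 CPM per kb), ROBO1 (63.0), EPHB4 (40.3), PLXNB2 (39.4) and EPHA2 (33.4). Within the semaphorins, the share of the summed level per kilobase held by SEMA4G went from 27.9% ± 0.612 to 18.4% ± 0.672 and that of SEMA3D from 6.14% ± 0.0404 to 15.2% ± 0.357 (SD, n = 3 per group). Within Eph receptors EPHB4 and EPHA2 held 52.3% and 40.5% of the controls' sum, against 49.5% and 41.1% in the knockdown libraries. The isoforms that the cells used are not known from this table, so the order of genes with close values may differ with another transcript.

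**Figure D3:**
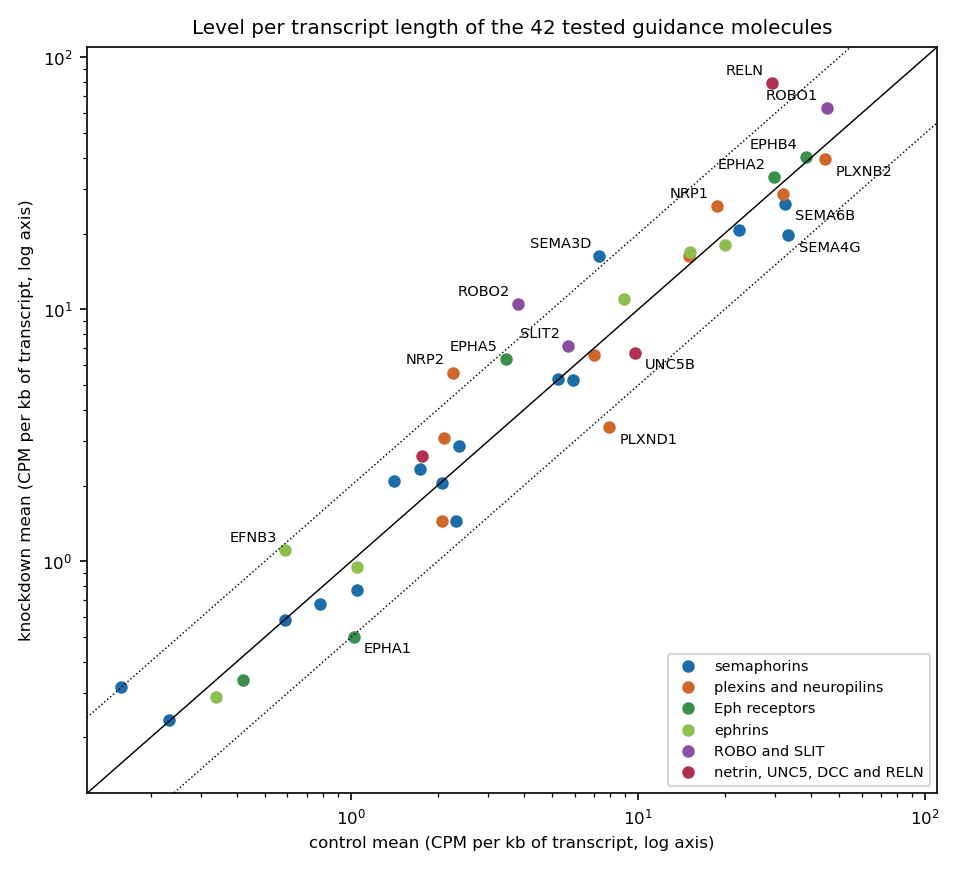
Mean level per kilobase of transcript in the 3 knockdown libraries (vertical) against the 3 control libraries (horizontal) for the tested guidance molecules, both axes on a log scale and in CPM per kb. The solid line marks equal levels and the dotted lines a 2-fold difference: RELN, ROBO2, NRP2 and SEMA3D lie above the upper dotted line and PLXND1 below the lower, and SEMA3E (2.01 times) and EPHA1 (0.493 times) lie on them.

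Co-receptors, adaptors and effectors of the same pathways were taken from 5 lists with 166 genes, of which 140 matched a row and 138 were tested. The lists were chosen with earlier results of these data known, so their shares describe the listed genes and are no test of the pathways. Of the 138, 59 were higher (42.8%, against 25.7% of all tested genes) and 29 lower (21.0%, against 26.5%) after knockdown, with a median log2 change of 0.078 against -0.001 over all tested genes. The semaphorin signalling list had 16 of 33 members higher (48.5%) and 3 lower (9.09%), and the reelin list 9 of 17 higher (52.9%) and 4 lower (23.5%, near the 26.5% of all genes). The Eph list had 15 of 38 higher (39.5%) and 9 lower (23.7%), the netrin list 10 of 22 (45.5%) and 6 (27.3%), and the SLIT list 9 of 28 (32.1%) and 7. In these 3 lists the lower shares lay near that of all genes, as did the higher share of the SLIT list. By the rule for naming, the largest rises were TUBB3, a neuronal tubulin that binds netrin receptors (27.3 ± 2.37 to 112 ± 3.17 CPM), ANKS1B, a relative of the Eph adaptor ANKS1A (2.99 ± 0.345 to 6.402 ± 0.555 CPM), DPYSL3, a collapsin response mediator (26.7 ± 1.17 to 47.0 ± 2.79 CPM), and MICAL1, a plexin-binding oxidase of actin (19.2 ± 0.402 to 33.1 ± 2.67 CPM). The largest falls were SDC4, a heparan sulfate proteoglycan (172 ± 2.26 to 51.3 ± 3.24 CPM), ARHGEF16 (17.7 ± 1.59 to 9.20 ± 0.391 CPM), WIPF1, a partner of WASP proteins (13.5 ± 0.889 to 7.61 ± 1.40 CPM), and NGEF, the exchange factor ephexin that acts behind EphA receptors (21.2 ± 1.08 to 12.5 ± 0.0922 CPM). None of these 8 genes had overlapping groups, but they were picked for their large called changes, and 57.3% of all tested genes had none either. Their limma adjusted p ran from 9.35e-28 for TUBB3 and 1.46e-28 for SDC4 to 3.85e-08 for ANKS1B.

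**Figure D4:**
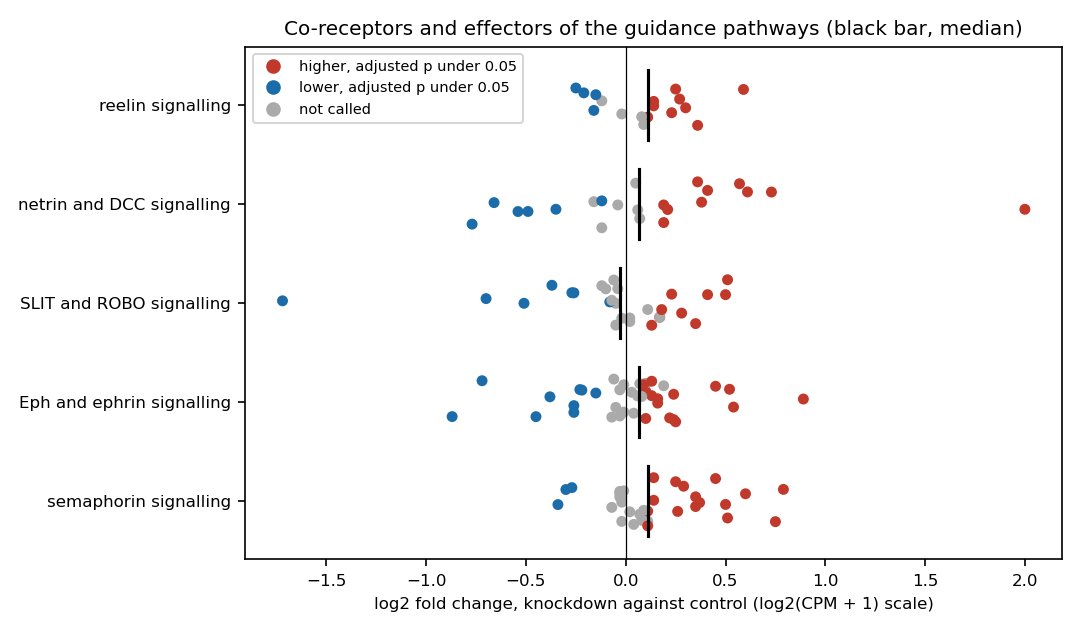
Log2 fold change after knockdown (horizontal axis, log2(CPM + 1) scale) of the tested co-receptors and effectors in 5 pathway lists (rows). Each point is a gene, coloured by its limma call, and the black bar is the list's median. TUBB3 at 2.00 and SDC4 at -1.72 stand apart from the other points.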

How the data were processed

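RNA sequencing libraries of Huh7 cells were compared, 3 control and 3 SETD5 knockdown, grouped by their labels. They were made with a stranded poly-T mRNA kit, per the labels' protocols. The submitters' processing notes name STAR 2.5.1, R 3.3.0 and the builds hg19 and mm10, without roles. The authors deposited 1 table of log2 normalized CPM. Undoing the log2 and the added 1 gave whole multiples of a step in the deposited columns (100% of values within 0.01 of a whole read). No source used here gives the counting, strand setting or gene filter. A count of 3 reads is 0.176 to 0.214 CPM, a floor for counting error only.

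The deposited values of genes averaging 1 CPM or more were fitted with limma 3.58.1 in R 4.3.3 (variance trend, group as the only term, two-sided), with Benjamini-Hochberg adjustment over 12865 genes and a threshold of 0.05. The fit was also run on simulated data with far fewer changed genes than were called here, so that run does not give the error rates of these data. Between libraries of a group, chi-square per gene of the reads was 1.26 to 2.15, so none copied another. Alternatives were another pseudocount, other filters, no trend, voom on recovered reads, centring, quantile normalization, a replicate block and leaving out each library.

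Members and lists were chosen with earlier results of these data known. Members that passed with no overlap between groups, and the most abundant of each family, are given in every library, and from the pathway lists the 4 largest called changes each way are named. The 3' UTR word, the read ratios and the 1.5-fold limit were added after values were seen. Transcripts came from GENCODE 29 and promoters from RefSeq, GRCh38.p14.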

Additional observations from a re-analysis of the deposited data

How the results depend on the processing

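Of the 31 named members, 26 kept their direction and their side of the threshold in every fit that tested them, and no direction reversed. Of 450 recomputed values, 17 lost the call, all of them in EFNA1, PLXNA1, SEMA3B or SEMA6C, and EPHB4 gained it once. SEMA4C, outside the 31, lost it in 4 fits. With a filter at 5 CPM, EFNB3, EPHA1, SEMA3E and SEMA3G were not tested. Members called higher numbered 18 and lower 13. These counts moved by over 1.5 times only under 2 settings chosen after seeing the data. With the 1.5-fold limit they were 7 and 3. With GCACCT-holding genes left out, lower members were 7, and pathway genes were 34 higher and 13 lower of 80 tested. There fewer genes were tested by construction. With the replicate block 31 members were called, the same 31, and no call changed. Libraries of the same number deviated together only in part (correlations of -0.029, 0.113 and 0.102 over 7696 genes), so the numbers are not taken to pair the samples. Low read numbers limit SEMA3C, SEMA3E, EFNB2, EFNB3, EFNA3, EPHB3, EPHA1 and UNC5CL.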

Other observations

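The 6 rows that lay under a mean of 1 CPM were not tested. EPHA6 was at 0.586, 0.766 and 0.357 CPM in the controls and 1.06, 1.17 and 1.02 CPM after knockdown, on 5 to 19 reads a library, and EPHB2 at 0.586, 0.488 and 0.429 CPM against 0.750, 0.859 and 0.658 CPM. In both, the groups did not overlap. With every row of the table tested, EPHA6 passed limma and EPHB2 did not. ROBO3 (0.351 to 0.777 CPM), SLIT1 (0.293 to 0.938 CPM) and SEMA6A-AS1 (0.250 to 0.798 CPM) had overlapping groups. EPHA10 had 0 reads in control replicate 2, which allows up to 0.209 CPM there, and 0.184 to 0.703 CPM in the other libraries. The 2 tested rows with UNC5 in their symbols that were not counted as guidance molecules did not pass. UNC50 was at 49.2 ± 2.46 and 47.4 ± 1.76 CPM and UNC5CL at 2.74 ± 0.176 and 2.34 ± 0.302 CPM (SD, n = 3 per group). The groups of UNC5CL did not overlap, by a narrow margin (lowest control 2.576 CPM, highest knockdown 2.572 CPM).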
